A study of Arabidopsis thaliana with 6 samples.

Results

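Of 44 Arabidopsis thaliana histone genes listed by locus, covering the linker histone H1 and the core histones H2A, H2B, H3 and H4, the platform's probe table gave a probe set to 29. These 29 genes were represented by 29 probe sets, among 17504 probe sets paired with any gene and 38408 probe sets in all. All 8 H4 genes, all 9 H3 genes, 9 of 11 H2B genes and all 3 H1 genes were covered. The 13 H2A genes, which include the H2A.X, H2A.W and H2A.Z variants, and the H2B genes AT3G45980 and AT3G53650 were not analysed here. The rule that picks the members uses their loci and none of their values.

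RNA for the arrays came from whole 35S::PLT2-GR seedlings, where the 35S promoter drives the PLETHORA transcription factor PLT2 joined to the hormone-binding part of the glucocorticoid receptor. Every seedling on every array carried this transgene, so the control group differed only in treatment. Seedlings aged 4 days were placed in batches of about 50 in 50 ml of liquid medium overnight and then received dexamethasone at 10 µM, or DMSO alone (mock), and were harvested after 6 h. The labels call the 3 flasks of a group biological replicates, and each flask gave 1 array. Since no arrays of fusion-free seedlings given the hormone were analysed here, the hormone's own effect and that of the fusion cannot be told apart.

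Histones package DNA. Pairs of H2A, H2B, H3 and H4 form the nucleosome core, and H1 binds the linker DNA that enters and leaves it. Replication-dependent histones, such as H4, H3.1 and the common H2B proteins, are made mainly in S phase to cover newly copied DNA, and their transcripts are widely read as a sign of DNA synthesis in meristems. Replacement variants such as H3.3 are laid down outside replication, largely at transcribed genes, and CENH3 marks centromeres. PLETHORA proteins maintain the dividing cells of the root meristem, so the comparison asks whether the measured histone transcripts differed 6 h after the fusion was activated.

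The levels below are log2 probe set values as the authors deposited them, and a change is the dexamethasone mean minus the mock mean on that log2 scale. A probe set was called when its p-value from limma was below 0.05 after Benjamini-Hochberg adjustment over the 17504 probe sets. This linear model estimates a variance for each probe set and draws it toward a value common to all. The array medians lay between 5.43 and 5.48. Correlations over the whole table were 0.9804 to 0.9865 between arrays of 1 group and 0.9694 to 0.9752 between arrays of different groups. The photosynthesis markers RCA and LHCB4.1 lay above the 94th percentile of every array and the root hair markers EXPA7 and EXPA18 between the 39th and 62nd percentile, which shows both shoot and root RNA in these whole seedlings. In bulk samples fewer cells of a type and less RNA per cell cannot be told apart, and this holds for every histone value below.

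Few histone transcripts differed between the groups in an experiment where many other transcripts did. In the whole comparison 18.6% of probe sets were called, 9.04% that rose and 9.54% that fell. Among the 29 histone probe sets 1 was called, or 3.45%, and it was the linker histone gene HIS1-3, which fell. The 29 are not separate measurements of 29 genes, since 16 of them name several genes. Of the 13 that name 1 gene 1 was called (7.69%), and of the 16 that name several none was. No histone probe set rose. At an unadjusted p below 0.05, a rule that 32.7% of all probe sets met, HIS1-3 was again the 1 histone probe set that passed. The median of the absolute log2 changes was 0.08 over the histone probe sets and 0.21 over all probe sets with a gene. The groups did not overlap for 3 histone probe sets (10.3%), against 38.1% of all probe sets. The share was 15.4% for histone probe sets naming 1 gene and 6.25% for those naming several.

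**Figure D1:**
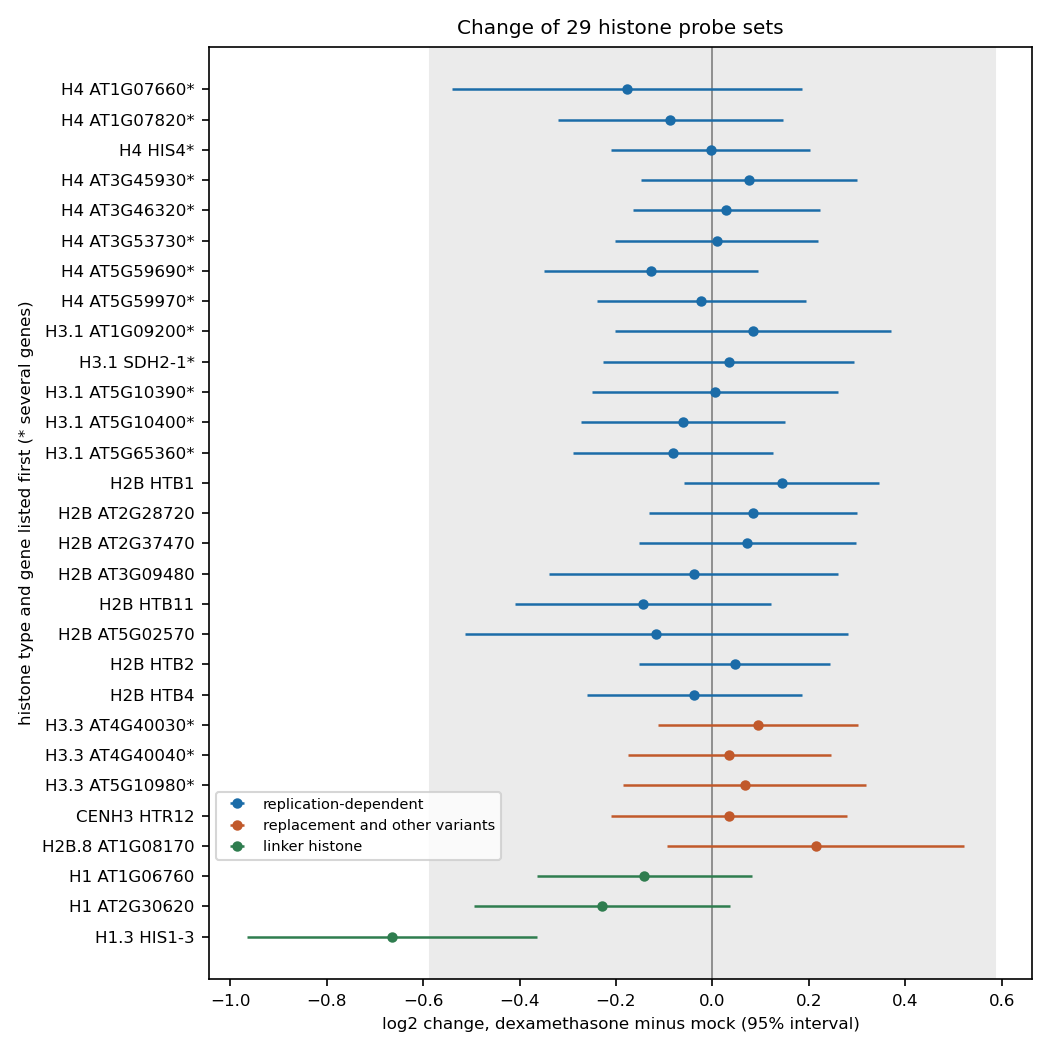
Log2 change (dexamethasone minus mock) of the 29 histone probe sets, with 95% intervals from limma; rows are ordered by histone type, an asterisk marks a probe set that names several genes, and the grey band spans changes within 1.5-fold. All intervals but that of HIS1-3 lie inside the band, and that of HIS1-3 lies wholly below 0.

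The measurements behind this were close together. The median residual SD between arrays of 1 group was 0.083 for the histone probe sets and 0.158 for all probe sets with a gene. Many histone probe sets are bright, and bright probe sets vary less. Among the 5015 probe sets with a mean log2 value of 7 or more, the median residual SD was 0.096 and 25.3% were called, while none of the 23 histone probe sets in that range was called. A p above the threshold does not show that a value is unchanged, so the 95% interval of each change was read as well. For 28 of the 29 histone probe sets, every one but HIS1-3, it lay within 1.5-fold in either direction, a bound chosen after the values were seen. The same was true of 56% of all probe sets and 70.8% of those at 7 or more.

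The replication-dependent class held 21 probe sets, 8 for H4, 5 for H3.1 and 8 for H2B. None was called, none had an unadjusted p below 0.05, and 10 changes lay above 0 and 11 below. With quantile normalization 3 of those above 0 turned below it, AT3G46320, AT3G53730 and AT5G10390, and with median centring AT5G10390 did. The changes of the class ran from -0.18 to 0.14 with a median of -0.00, beside a median of 0.02 over all probe sets with a gene. Their adjusted p ranged from 0.3 to 0.982 (limma). The intervals of this class reached down to 0.688 times the mock level and up to 1.29 times.

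H4 wraps DNA together with H3 and is encoded by 8 genes in this list. The probe table pairs each of 8 probe sets with all 8 H4 genes and lists a different gene first in each, so these probe sets cannot be assigned to single H4 genes and do not count as 8 independent genes. Their changes ran from -0.18 to 0.08 with a median of -0.01. The most negative belonged to the probe set that lists AT1G07660 first. Its mock arrays gave 9.26, 9.26 and 9.30 and its dexamethasone arrays 9.21, 9.32 and 8.75. The third dexamethasone array alone stood low, the groups overlapped, and the change was -0.18 (95% interval -0.54 to 0.19, adjusted p 0.48 by limma) and -0.01 without that array.

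The other H4 probe sets were tighter. The probe set listing AT3G46320 first gave 11.48, 11.50 and 11.43 in mock and 11.51, 11.49 and 11.50 with dexamethasone, a change of 0.03 (95% interval -0.16 to 0.22). Mock and dexamethasone values of this probe set intermixed. For the probe set listing AT5G59690 first, the mock arrays gave 9.73, 9.71 and 9.78 and the dexamethasone arrays 9.65, 9.69 and 9.49. Here every dexamethasone value was below every mock value, but the change of -0.13 was small (SE 0.09, adjusted p 0.405 by limma). Across the 8 H4 probe sets, dexamethasone replicate 3 was the lowest array in 4 and the highest in none.

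H3.1 is the H3 form laid down at replication and is encoded by 5 genes here. Again every one of its 5 probe sets names all 5 genes. One of them lists SDH2-1 first, the gene of the iron-sulphur subunit of mitochondrial succinate dehydrogenase, so its signal may not come from a histone. It is included in the counts above, and without it 20 replication-dependent probe sets remain, 9 with a change above 0 and 11 below, none of them called. Its change was 0.03 (95% interval -0.23 to 0.29). The other H3.1 probe sets had changes from -0.08 to 0.08. The largest of these was the probe set listing AT1G09200 first, with 9.04, 8.86 and 8.99 in mock and 9.05, 9.23 and 8.85 with dexamethasone. The dexamethasone arrays held both the highest and the lowest of these 6 values.

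H2B pairs with H2A in the nucleosome, and its 8 probe sets of the replication-dependent class each name 1 gene, so they can be read gene by gene. HTB1 had the most positive change of the class. Its mock arrays gave 8.91, 8.96 and 8.99 and its dexamethasone arrays 9.03, 9.12 and 9.14. The groups did not overlap, but the change of 0.14 (SE 0.09, 95% interval -0.06 to 0.35) was not called, with an adjusted p of 0.3 by limma.

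For HTB11 the change was below 0. It gave 8.91, 9.16 and 9.07 in mock and 8.76, 9.02 and 8.93 with dexamethasone, so the groups overlapped, and the change was -0.14 (95% interval -0.41 to 0.12). Of the 8 H2B genes 4 had a change above 0 and 4 below. HTB2, AT2G28720, AT2G37470 and HTB4 had changes of 0.05, 0.08, 0.07 and -0.04. AT5G02570 and AT3G09480, also H2B genes and placed in this class by protein type, had log2 levels near 5 and 6 on average and changes of -0.12 and -0.04. The residual SD was 0.24 for AT5G02570 and 0.04 for HTB2, so the dimmer gene was measured less precisely.

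**Figure D2:**
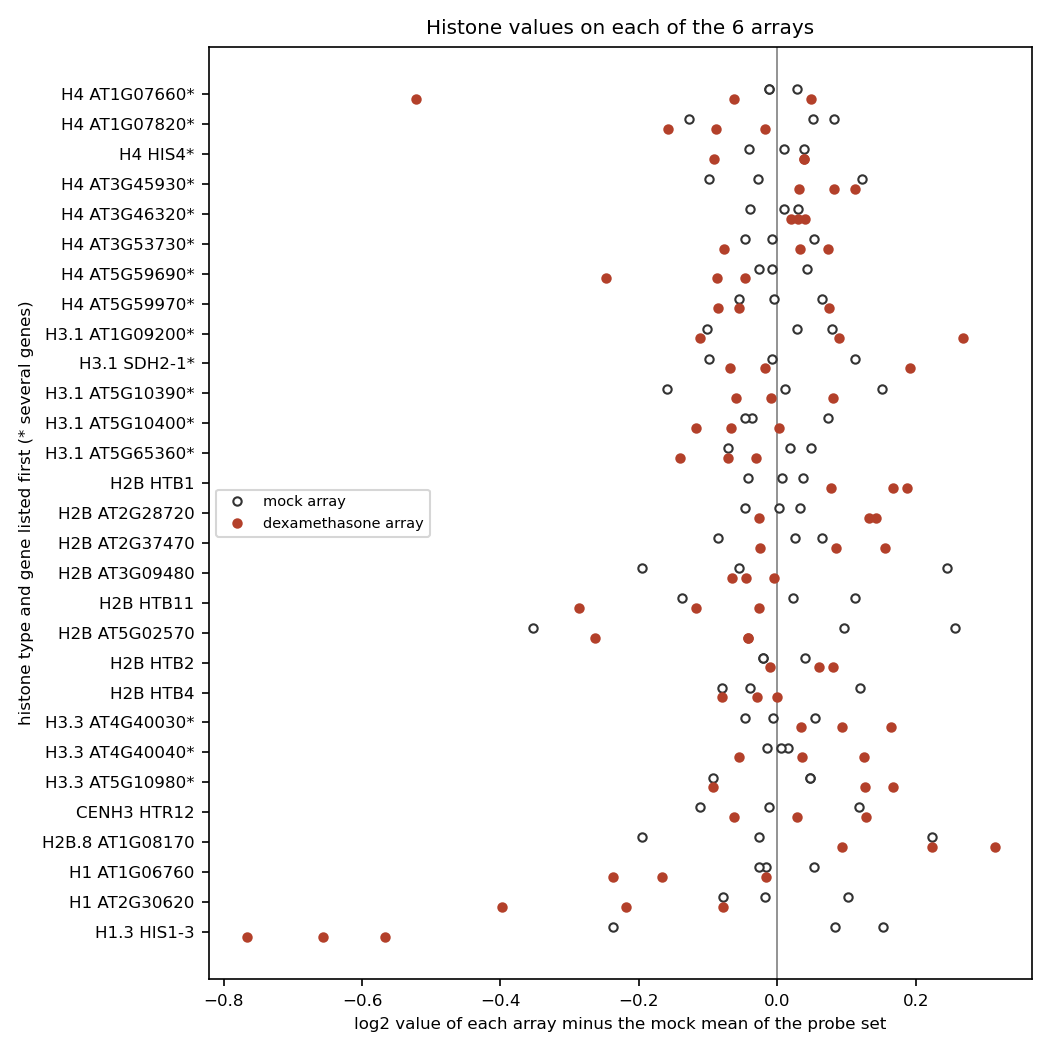
Log2 value of each of the 6 arrays minus the mock mean of the same probe set, for the 29 histone probe sets; open circles are mock arrays and filled circles dexamethasone arrays. Mock and dexamethasone circles intermix in most rows, the third dexamethasone array (8.75) stands far to the left in the H4 row of AT1G07660, and in the row of HIS1-3 the filled circles all lie left of the open ones.

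The replacement and other variants were represented by 5 probe sets, 3 for H3.3, 1 for CENH3 and 1 for the divergent H2B gene AT1G08170. None was called. All 5 changes lay above 0, from 0.03 to 0.21 with a median of 0.07, also under quantile normalization and median centring, but that of HTR12 turned below 0 without mock replicate 3 or without dexamethasone replicate 2, and that of AT4G40040 without dexamethasone replicate 1. The 3 H3.3 probe sets name the same 3 genes, so these 5 values do not stand for 5 separate genes. Over all probe sets with a gene 9305 of 17504 changes lay above 0. The intervals of the class reached from 0.864 to 1.44 times the mock level.

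H3.3 differs from H3.1 at a few residues and replaces it at active genes. The probe set listing AT4G40030 first gave 7.66, 7.70 and 7.76 in mock and 7.87, 7.74 and 7.80 with dexamethasone. The groups overlapped by 1 array, and the change was 0.10 (95% interval -0.11 to 0.30, adjusted p 0.511 by limma). The probe set listing AT5G10980 first gave 9.37, 9.51 and 9.51 in mock and 9.59, 9.63 and 9.37 with dexamethasone, a change of 0.07, and for the one listing AT4G40040 first it was 0.03. In the last 2 of these the third dexamethasone array was the lowest of all 6.

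HTR12 encodes CENH3, the H3 form on which the kinetochore is built, and is loaded in dividing cells. Its mock arrays gave 6.69, 6.56 and 6.46 and its dexamethasone arrays 6.51, 6.70 and 6.60. The groups overlapped throughout, with a change of 0.03 (95% interval -0.21 to 0.28).

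AT1G08170 encodes H2B.8, a form known from sperm and dry seeds. Its mock arrays gave 2.48, 2.90 and 2.65 and its dexamethasone arrays 2.99, 2.77 and 2.90. These values lay between the 16th and 23rd percentile of their arrays, under the first quartile of each, and signal over background was not analysed here. The change of 0.21 was the most positive among the histone probe sets (95% interval -0.09 to 0.52, adjusted p 0.311 by limma). Leaving out mock replicate 1 gave 0.12 and leaving out mock replicate 2 gave 0.33. MGH3 (HTR10), an H3 gene of pollen that was no member, lay between the 5th and 23rd percentile, with a change of 0.52 (adjusted p 0.101 by limma); with dexamethasone replicate 1 left out it was 0.69 (adjusted p 0.048), and with replicate 3 left out 0.34 (adjusted p 0.19).

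The linker histones were the class in which all 3 changes lay below 0. Over all probe sets with a gene 8199 of 17504 changes did so. HIS1-3 encodes H1.3, a short linker histone known to be induced by drought and abscisic acid and to be present in guard cells, while AT1G06760 and AT2G30620 encode the main forms H1.1 and H1.2. HIS1-3 gave 5.81, 5.49 and 5.88 in mock (mean 5.73, SD 0.21, n = 3) and 5.07, 4.96 and 5.16 with dexamethasone (mean 5.06, SD 0.10, n = 3). Every dexamethasone value lay below every mock value.

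HIS1-3 was 1.59-fold lower with dexamethasone (log2 change -0.67, SE 0.13, 95% interval -0.97 to -0.36), with an adjusted p of 0.0138 by limma. A fall larger than this was found for 967 of the 17504 probe sets, so it was not among the largest falls of the experiment. Without mock replicate 1 the change was -0.63 and the adjusted p 0.0546, which does not pass the threshold. In the other 5 fits that left out 1 array the change lay between -0.59 and -0.78 and the adjusted p between 0.013 and 0.0465.

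Neither main linker gene was called. AT2G30620 gave 9.54, 9.66 and 9.48 in mock and 9.16, 9.48 and 9.34 with dexamethasone. The groups overlapped narrowly, at 1 array each, and the change was -0.23 (95% interval -0.50 to 0.04, adjusted p 0.213 by limma), or -0.15 without dexamethasone replicate 1 and -0.31 without dexamethasone replicate 2. AT1G06760 gave 10.13, 10.20 and 10.12 in mock and 10.13, 9.98 and 9.91 with dexamethasone. The first dexamethasone array matched the mock arrays, the others lay below them, and the change was -0.14 (95% interval -0.36 to 0.08, adjusted p 0.358 by limma).

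HIS1-3 was also set against the main linker genes within each array, as its log2 value minus the mean of AT1G06760 and AT2G30620, after its own values were known. That difference changed from -4.13 (SD 0.27, n = 3) in mock to -4.61 (SD 0.16, n = 3) with dexamethasone, by -0.48. The values of the groups did not overlap. An exact permutation over the 20 splits of 3 arrays against 3 gave a p of 0.1, the smallest it can give. It therefore cannot decide whether the linker genes differ in their change.

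**Figure D3:**
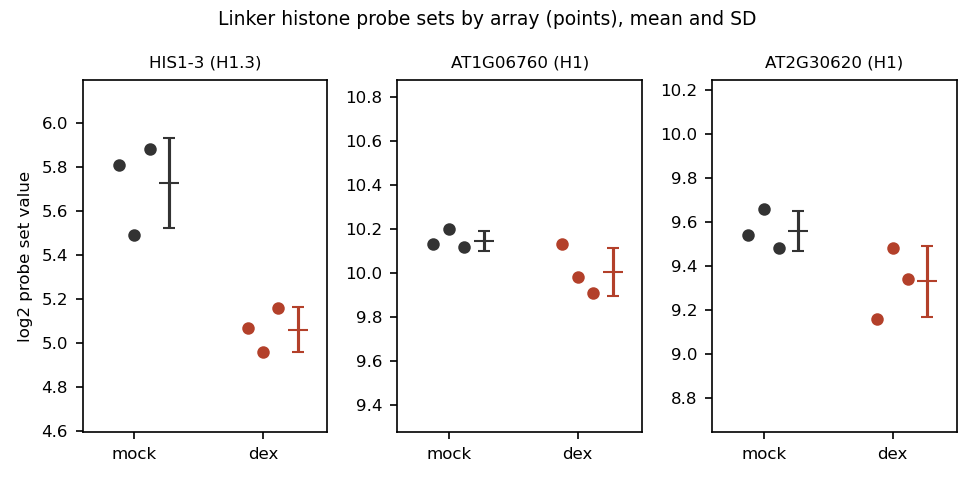
Log2 probe set values of the 3 linker histone genes on each array, with the mean and SD (n = 3) beside the points; each panel spans the same range on the log2 scale. HIS1-3 shows a gap between mock (5.49 to 5.88) and dexamethasone (4.96 to 5.16), while AT1G06760 and AT2G30620 differ by 0.14 and 0.23 between group means.

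Of 23 listed cell type markers 9 were measured and 3 were called, all of which fell. Over all probe sets with a gene 18.6% were called, 9.04% that rose and 9.54% that fell. Both measured root hair markers fell, EXPA7 by 1.23 and EXPA18 by 1.35 on the log2 scale. Of the photosynthesis markers RCA fell by 0.32 (adjusted p 0.0475 by limma), but it did not pass when any 1 array was left out (adjusted p 0.0701 to 0.139), with the replicate number as a block (0.101), with robust eBayes (0.0504) or when all probe sets were tested (0.0674). With an intensity trend its adjusted p was 0.00154. For LHCB4.1 the change was -0.23 (adjusted p 0.12, and 0.0137 with an intensity trend). The shoot meristem marker CLV3 was near the low end of every array (8th to 14th percentile). None of the 4 measured pollen markers was called, with changes from -0.14 to 0.52. The part of these cell types in the fall of HIS1-3 was not tested.

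**Figure D4:**
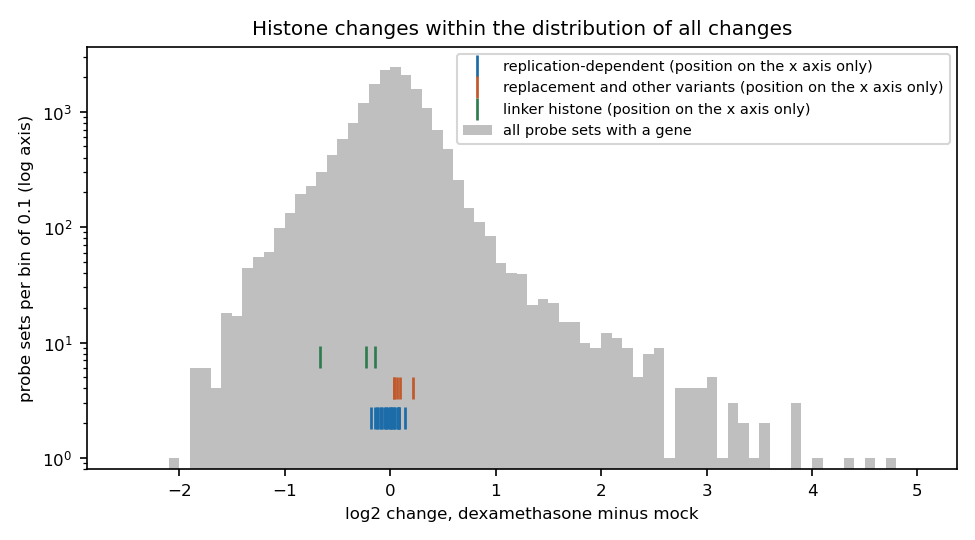
Histogram of the log2 changes of all 17504 probe sets with a gene (grey bars, 0.1 per bin, log count axis), with the changes of the histone probe sets drawn as coloured ticks whose height has no meaning. The replication-dependent ticks lie between -0.18 and 0.14 around the peak of the histogram, and HIS1-3 at -0.67 is the lowest histone tick, inside the left flank of the histogram.

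Genes that work with histones were read from the same test. Of 25 genes for histone chaperones and for the deposition of variants 6 were measured. None was called, where 18.6% of all probe sets were, and 4 (66.7%) had an unadjusted p below 0.05, where 32.7% of all probe sets did. All 6 changes lay above 0, from 0.04 to 0.32, with a median of 0.24 beside 0.02 over all probe sets with a gene. ASF1B, a chaperone that hands H3 and H4 to the replication machinery, gave 6.64, 6.39 and 6.42 in mock and 6.77, 6.83 and 6.80 with dexamethasone. The groups did not overlap, and its change of 0.32 (SE 0.10, 95% interval 0.08 to 0.55) had an adjusted p of 0.0684 by limma, which became 0.0353 when dim probe sets were left out and 0.0381 with an intensity trend.

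The others were its paralogue ASF1A (0.21), the H3 chaperone NASP (0.28), the SWR1 subunit SWC2, of the complex that inserts H2A.Z (0.27), the H3.3-linked remodeller ATRX (0.17) and the remodeller INO80 (0.04). NASP had an adjusted p of 0.113, or 0.0446 with an intensity trend. INO80 overlapped between groups, and its change turned to -0.05 without mock replicate 3 and -0.06 without dexamethasone replicate 1.

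Of 36 genes for DNA replication and entry into S phase 3 were measured. None was called, where 18.6% of all probe sets were, and 2 (66.7%) had an unadjusted p below 0.05, where 32.7% of all probe sets did. The groups did not overlap for any of the 3, where 38.1% of all probe sets do not overlap. MCM7, a subunit of the replicative helicase (named PRL in the probe table), gave 7.06, 7.20 and 7.19 in mock and 7.51, 7.41 and 7.37 with dexamethasone. The groups did not overlap, and the change of 0.28 (SE 0.09) had an adjusted p of 0.0785 by limma, or 0.0399 without dim probe sets and 0.0291 with an intensity trend. POLA1, the DNA polymerase alpha gene ICU2, had a change of 0.29 (adjusted p 0.134 by limma, and 0.0482 with dexamethasone replicate 3 left out). CDC6B, a helicase loader, had a change of 0.42 from a dim mock level of 3.57. It was 0.25 with dexamethasone replicate 2 left out and 0.53 with replicate 3 left out. The mock arrays of CDC6B gave 3.63, 3.31 and 3.76 and its dexamethasone arrays 3.88, 4.31 and 3.76. Its groups thus nearly touched, at 3.76. For these genes 2-fold increases lie outside the intervals, whose highest bound was 1.79 times the mock level, for CDC6B.

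**Figure D5:**
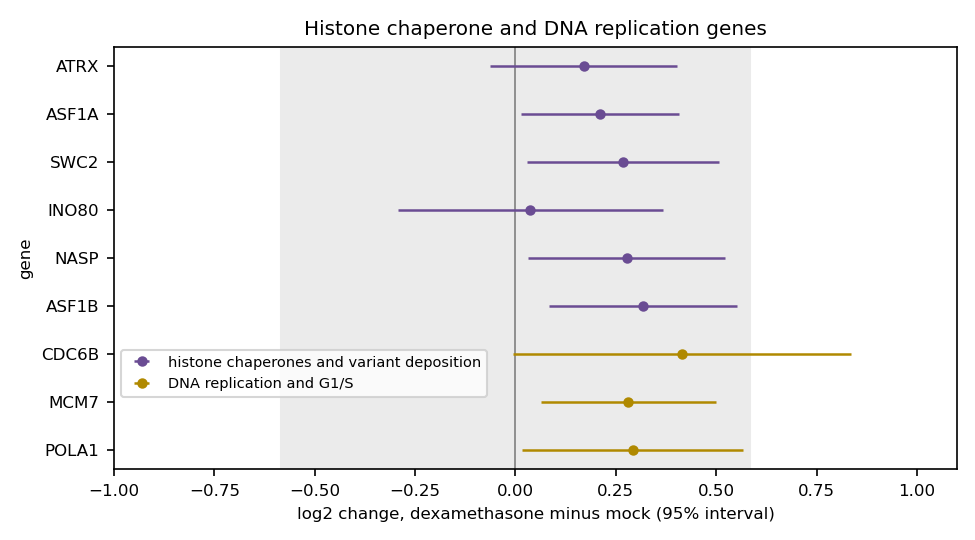
Log2 change (dexamethasone minus mock) with 95% intervals for 6 histone chaperone and deposition genes and 3 DNA replication genes; the grey band spans changes within 1.5-fold. All 9 points lie right of 0, from 0.04 for INO80 to 0.42 for CDC6B, and none was called over all probe sets.

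Several histone genes lie close together in the genome. In the gene order of the TAIR10.1 assembly, 9 pairs of listed histone genes have at most 5 protein-coding genes between them. The H3.1 genes AT5G10390 and AT5G10400 are direct neighbours, as are the H3.3 genes AT4G40030 and AT4G40040. HTB1 is followed after 2 protein-coding genes by the H4 gene AT1G07820, and AT2G28720, also an H2B gene, is followed after 1 by the H4 gene HIS4. In these last pairs the changes were 0.14 and 0.08 for the H2B probe sets, and for the H4 probe sets that list the neighbour first they were -0.09 and -0.00, with intervals that include 0 in all 4. Since those H4 probe sets name all 8 H4 genes, the H4 neighbours have no values of their own.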

How the data were processed

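The deposited table holds log2 probe set values, 1 per array, for 6 arrays. Per the submitters' processing notes the tools included RMA and limma 3.24.15, with no role stated. The genome build is not given in the sources used here. Members were joined by probe, gene ID and locus (RefSeq, TAIR10.1, names and gene order only), with probe sets that name several genes kept and marked. Of 16746 probe sets with 1 gene, 16601 matched.

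The test was lmFit and eBayes of limma 3.58.1 (R 4.3.3), dexamethasone minus mock, on the deposited values, two-sided, without further normalization, adjusted over 17504 probe sets. SE and 95% intervals are moderated. The code was tested on simulated data. The array number limits the precision. No 2 arrays were identical.

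The member list, by locus, and the classes and other lists were drawn up with earlier results of these data known. The rule for named genes gave array values for each called member and for the 3 largest changes not called in each class, and from each list its called genes or the one with the smallest p. Further members were picked for naming once values were known. The settings varied were the replicate block, quantile normalization, median centring, leaving out the dimmest 30% of probe sets, an intensity trend, robust eBayes, array weights, an adjusted p of 0.01, all probe sets, and each array left out in turn. Hybridisation of 1 probe set with several similar histone genes was not checked.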

Additional observations from a re-analysis of the deposited data

How the results depend on the processing

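No histone probe set rose in any of the 15 other settings, and 1, HIS1-3, fell in all but 2 of them. The count that fell was 0 without mock replicate 1 and 0 at an adjusted p of 0.01, the second because the adjusted p of HIS1-3 is 0.0138; over the fits without 1 array it ran from 0 to 1. Over all probe sets with a gene 1205 passed at 0.01 and 1724 to 2477 with 1 array left out, the lowest counts coming without mock replicates 1 (1724), 2 (2017) and 3 (2119), with fewer arrays in each fit. The replicate block gave 2417 calls in place of 3252 and an adjusted p of 0.0214 by limma for HIS1-3, and it changed no histone call. Deviations from the group means correlated at -0.0316, 0.0153 and 0.0425 between arrays of the same number. Of the 6 arrays 2 correlated best with their own number. Whether arrays of the same number shared a batch was not tested. Among the histone probe sets not called, 12 changed sign in at least 1 setting, 22 times in all, with values no larger than 0.08 in size. Of the 28 probe sets besides HIS1-3, 24 (without dexamethasone replicate 2) to 28 kept an interval within 1.5-fold with 1 array left out, 27 did with the block and 27 with the trend, and all 27 tested did without dim probe sets, where AT1G08170 drops out. Scaling moved the median of all probe sets from 0.02 to -0.02 (quantile) and 0.02 (median centring), and the share of calls that rose from 48.6% to 43.2% and 47.5%. Folds of dim genes are limited by signal over background, which was not analysed here.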

Other observations

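Because HIS1-3 is known from drought, abscisic acid and guard cells, lists for these were drawn up after its fall was seen. Earlier results of these data were known by then, and the lists are given as a description. Of 8 stomatal lineage genes 3 were measured. SPCH, the transcription factor that starts the lineage, gave 8.27, 8.31 and 8.12 in mock and 7.55, 7.62 and 7.49 with dexamethasone, a fall by 0.68 on the log2 scale (SE 0.10, adjusted p 0.00458 by limma). FAMA, which ends the division of the guard mother cell, fell by 0.63 (adjusted p 0.017 by limma), a call lost without mock replicate 1 (0.051) or mock replicate 3 (0.0559). MUTE, which acts between them, had a change of -0.80 (adjusted p 0.111 by limma, and 0.0397 with an intensity trend), with an SD of 0.64 among the dexamethasone arrays; the change was -0.43 with dexamethasone replicate 1 left out and -1.03 with replicate 3 left out. The groups did not overlap for any of the 3, where 38.1% of all probe sets do not overlap.

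Of 28 abscisic acid and drought response genes 5 were measured, of which 1 was called (20%), near the 18.6% of all probe sets. At an unadjusted p below 0.05 by limma 4 passed (80%), where 32.7% of all probe sets did. The groups did not overlap for 4 (80%), where 38.1% of all probe sets do not overlap. Of the 5 changes 2 lay above 0 and 3 below. LTI30, a dehydrin gene, fell by 0.74 on the log2 scale (SE 0.13, adjusted p 0.0105 by limma), from 7.74, 7.79 and 7.72 in mock to 6.77, 7.04 and 7.24 with dexamethasone. COR47 had a change of -0.24 (adjusted p 0.146), or an adjusted p of 0.027 with an intensity trend. KIN2 had a change of -0.11, or -0.00 with dexamethasone replicate 1 left out and -0.27 with replicate 2 left out. KIN1 and COR15A had changes of 0.39 and 0.29, from dim mock levels of 3.39 and 2.81, with adjusted p of 0.0703 and 0.144; that of KIN1 was 0.0396 when dim probe sets were left out. The part of stomatal cells or of the abscisic acid response in the fall of HIS1-3 was not tested.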
